A study of Caenorhabditis elegans with 24 samples.

Results

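The comparison described here is that of *hlh-30(tm1978)* mutants with wildtype *C. elegans* kept at 20°C, that is, without heat stress. Its members were chosen by sample title and number 7 of the 24 libraries of the series, 4 of mutants (replicates 1 to 4) and 3 of wildtype (replicates 2 to 4). Wildtype was the laboratory strain N2, and the mutants (strain LRL31) carried the tm1978 deletion in *hlh-30* with no transgene. Populations of both genotypes were synchronized with hypochlorite, developed at 20°C on *E. coli* OP50, and were kept for a further 3 h at 20°C on day 1 of adulthood, after which total RNA was taken from whole animals. A further wildtype file, labelled 20°C replicate 1, was not used, since it is a copy of the 37°C replicate 4 file (46756 of 46756 counts identical). Libraries of the same genotypes after 3 h at 37°C (4 and 4), and of rescued animals at 20°C (4), are used beside them. Rescued animals carried *hlh-30(tm1978)* and an *hlh-30::GFP* transgene driven in neurons by the *rab-3* promoter and 3′UTR. Each library was made from a pool of many animals, and the study states that its replicates were independent, so p-values measure the spread between such pools.

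HLH-30 is the *C. elegans* ortholog of TFEB, a basic helix-loop-helix leucine zipper factor that in mammals activates genes of autophagy and of the lysosome. It is held in the cytoplasm when nutrients are plentiful and moves to the nucleus under starvation, infection and heat. In worms it is known for its roles in long-lived mutants, in fat mobilization by lysosomal lipases and in the defence against bacteria. The comparison at 20°C asks which transcripts depend on *hlh-30* in fed young adults before any heat stress.

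In WBcel235, *hlh-30* (WBGene00020930) spans chromosome IV, 4014799 to 4028127, minus strand. Levels are given as CPM, the usual scaling of counts to library size, with edgeR's TMM factors over the 23 libraries used. *hlh-30* was at 39.9, 43.6 and 73.8 CPM in wildtype and at 8.13, 8.63, 16.01 and 13.7 CPM in mutants. Every mutant library lay under every wildtype library. Reads from outside the deleted stretch can still be counted, so the remaining level does not measure protein. The fitted difference was a log2 fold change of -2.16 (SE 0.30, adjusted p = 0.0151, edgeR quasi-likelihood test with Benjamini-Hochberg adjustment). Without mutant replicate 1, 2 or 4 the log2 fold change was -2.04, -2.001 or -2.25, with an adjusted p of 0.0673, 0.0701 or 0.0577. A 2-sided exact permutation test of *hlh-30* gave p = 0.0571, the smallest value that 4 libraries against 3 allow. *W06A11.1*, the uncharacterized gene that the study followed up, was near the detection limit at 20°C. It was counted at 0.282, 0.51 and 0.285 CPM in wildtype and at 0, 0, 0.219 and 0.382 CPM in mutants, and the groups overlapped (adjusted p = 0.511, exact permutation p = 0.229).

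The depth of the 7 libraries was 12228267 to 23025013 counted reads, with a median of 14396084 and mutant replicate 3 deepest. Marker lists of muscle, intestine, epidermis and neurons were detected in all 7 libraries, and none of their genes passed the test. Libraries stood apart in the summed levels of sperm genes, of moulting genes, and of oocyte and eggshell genes. The summed level of 48 sperm genes was 66.8, 180.4 and 9.99 CPM in wildtype replicates 2, 3 and 4, against 6.75 to 17.3 CPM in mutants. That of 13 moulting genes was 98.7, 98.6 and 233.9 CPM in wildtype replicates 2, 3 and 4 and 64.3 to 103.4 CPM in mutants. The summed oocyte and eggshell level was lowest in wildtype replicate 4, at 3754 CPM against 4867 to 7595 CPM in the others. None of the 36 sperm, 26 oocyte, 10 early embryo and 12 moulting genes tested passed the threshold. These values are given beside the results they move with, and their part in those results was not tested.

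**Figure D1:**
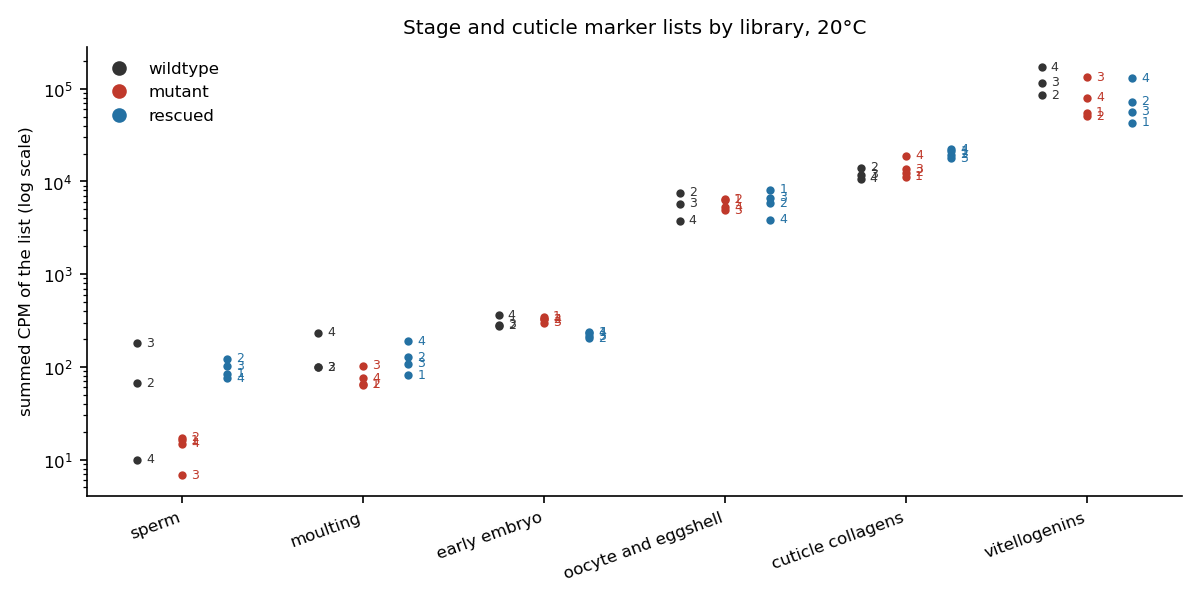
Summed CPM (log scale) of 6 marker lists in each library at 20°C, with wildtype in black, *hlh-30(tm1978)* mutants in red and rescued animals in blue. Each point is a library and the digit beside it is its replicate number. Wildtype libraries span 9.99 to 180.4 CPM for sperm genes, and wildtype replicate 4 has the highest moulting sum at 233.9 CPM.

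Loss of HLH-30 was accompanied mainly by lower transcript levels. Of 13482 genes tested, 81 were lower in mutants (0.601%) and 18 were higher (0.134%), or 99 in all (0.734%). The lower genes had a median log2 fold change of -2.08, and 43 of them were under -2, down to -8.53. The higher genes had a median of 1.53 and reached 2.82. All 99 had CPM values that did not overlap between the genotypes, which held for 15.5% of all genes tested, and the test selects for this. The median log2 fold change of all genes was -0.07, with 7533 genes negative and 5910 positive. The lower genes had a median wildtype level of 18.7 CPM, against 17.2 CPM for all genes tested. They ranged from 29 genes under 10 CPM to 12 genes over 100 CPM. Of the 99, 93 were protein coding and 42 had no gene name beyond a clone-based identifier. In whole animals, fewer cells of a type and less RNA per cell cannot be told apart.

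The count rests on single libraries to a large degree. It was 188 genes without wildtype replicate 4 (92 of them among the 99), 33 without wildtype replicate 3, 28 without mutant replicate 1, and 33 without mutant replicate 2 or replicate 4. Of the 99 genes, 22 passed in all 7 fits that left out 1 library, 59 passed in at most 3 of them, and all 99 kept their sign in each. Wildtype replicate 4 also moved the median of many lists. Without it, the median of all genes was 0.01 in place of -0.07, and the medians of several lists are given both ways.

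The gene with the greatest fall was *tts-1* (WBGene00006650, chromosome X, 1504131 to 1504841, minus strand), a long noncoding RNA known to bind ribosomes in long-lived *daf-2* mutants. It was counted at 516.6, 441.3 and 522.4 CPM in wildtype and at 1.69, 2.41, 0.57 and 0.827 CPM in mutants. Wildtype levels were thus among the higher ones of the 81 genes, and mutant levels near the detection limit. The log2 fold change was -8.53 (SE 0.39, adjusted p = 1.89e-05), a 368-fold difference, and lay between -8.94 and -8.20 when any library was left out. Another noncoding RNA, *rncs-1*, known in worms as an inhibitor of Dicer that rises in starvation, was at 85.1, 82.5 and 76.2 CPM in wildtype. It was at 20.0, 14.9, 35.5 and 22.1 CPM in mutants, a log2 fold change of -1.80 (SE 0.25, adjusted p = 0.0151). The lincRNA *linc-84* ends 283 bases before *F55H12.2* on the same strand of chromosome I, and both were lower in mutants. *linc-84* was low in wildtype, at 2.54, 2.40 and 4.28 CPM, and at most 0.383 CPM in mutants. *F55H12.2* was at 39.7, 54.6 and 68.8 CPM in wildtype and at 9.73, 8.76, 5.97 and 10.9 CPM in mutants, a log2 fold change of -2.61 (SE 0.26, adjusted p = 0.00297).

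*adh-1*, an alcohol dehydrogenase gene (WBGene00010790, chromosome V, 11888236 to 11889634, plus strand), was at 42.3, 35.2 and 33.02 CPM in wildtype. In mutants it was at 0.23, 0.508, 0.526 and 0.636 CPM, which came from 3 to 12 reads per library. Its log2 fold change was -6.22 (SE 0.27, adjusted p = 1.89e-05). *spp-2*, which encodes a saposin-like protein of a family with pore-forming, antibacterial members, was at 53.5, 62.7 and 104.9 CPM in wildtype and at 4.37, 4.57, 4.34 and 5.03 CPM in mutants. The mutant libraries of *spp-2* lay close together while wildtype replicate 4 was high, and the log2 fold change was -3.997 (SE 0.25, adjusted p = 0.000225). The uncharacterized genes *T26H5.9* (log2 fold change -3.39), *F59C6.16* (-3.1), *Y54G2A.11* (-2.59), *Y43F8B.9* (-2.56) and *T05E12.3* (-3.19) fell as well. Of these, *T05E12.3* lost its call without wildtype replicate 3 or mutant replicate 1, 2 or 4, and the others passed in all 7 such fits. *F59C6.16* overlaps *che-13* on the opposite strand, and without a stated strand setting its reads cannot be told from those of *che-13*. Across the 99 genes, 17 overlapped another tested gene and are uncertain in the same way, *T12D8.5*, *C06B3.6*, *tre-5*, *fat-5*, *gsto-3*, *dpy-6*, *mpst-7* and *nlp-24* among them.

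**Figure D2:**
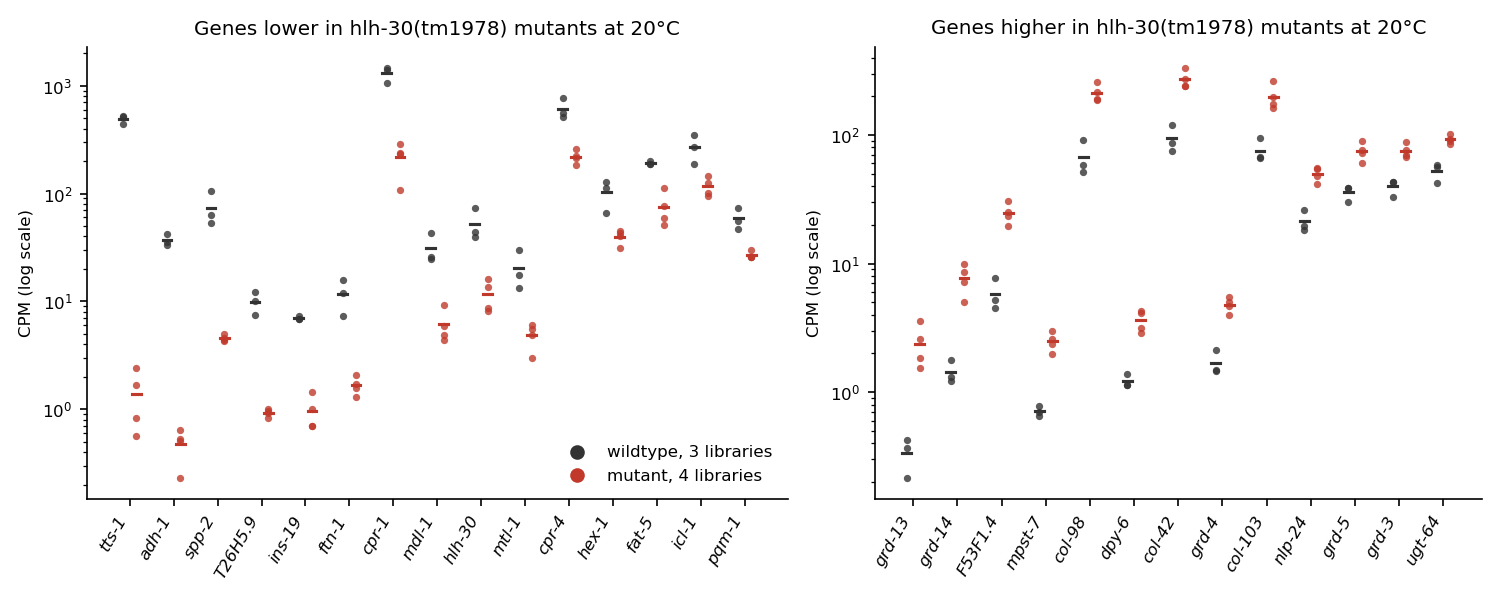
CPM (log scale) of 15 genes lower and 13 genes higher in *hlh-30(tm1978)* mutants at 20°C, with 1 point per library and a bar at the group mean. Wildtype (black, 3 libraries) and mutants (red, 4 libraries) do not overlap for any gene shown, and *tts-1* has the widest gap, from 441.3 CPM or more to 2.41 CPM or less.

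Of the canonical TFEB targets, single lysosomal genes passed the test. Among 20 cathepsin-type proteases of the lysosome tested, 2 were lower in mutants and none was higher, where 0.601% of all genes were lower. The list median was -0.35, and -0.15 without wildtype replicate 4. Both encode cathepsin B-like cysteine proteases, enzymes that cleave proteins in the lysosome and in the gut. *cpr-1* was at 1065, 1388 and 1472 CPM in wildtype and at 232.3, 290.5, 107.9 and 235.8 CPM in mutants. Its log2 fold change was -2.58 (SE 0.30, adjusted p = 0.00835). *cpr-4* was at 553.8, 510.7 and 771.9 CPM in wildtype and at 184.4, 214.0, 221.0 and 259.0 CPM in mutants, a log2 fold change of -1.47 (SE 0.17, adjusted p = 0.00838). Both genes passed in each of the 7 fits that left out a library. Of 32 other lysosomal membrane proteins and hydrolases, only *hex-1*, a beta-N-acetylhexosaminidase gene, passed (list median -0.39, and -0.16 without wildtype replicate 4). *hex-1* was at 65.6, 113.2 and 129.0 CPM in wildtype and at 31.3, 43.3, 44.6 and 40.1 CPM in mutants (log2 fold change -1.353, SE 0.23, adjusted p = 0.0332). It passed in 2 of the 7 fits without a library, those without wildtype replicate 2 or 4.

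No gene of the autophagy machinery passed the test at 20°C (0 of 32, list median -0.22, and -0.08 without wildtype replicate 4). Over all genes, 0.734% passed. Of the 32, 24 had negative log2 fold changes. At an unadjusted p under 0.05, 9 of the 32 were lower and 2 higher, against 1341 and 922 of the 13482 genes tested. *lgg-1*, the LC3 homolog that coats autophagosomes, was at 725.4, 852.9 and 940.2 CPM in wildtype and at 558.3, 599.4, 603.1 and 560.0 CPM in mutants. Its groups did not overlap, and its log2 fold change of -0.52 (SE 0.13) had an adjusted p of 0.127. *sqst-1*, the p62 homolog that delivers cargo to autophagosomes, had a log2 fold change of -1.05 (SE 0.28, adjusted p = 0.154) with values of 58.2, 71.1 and 132.0 CPM in wildtype and 31.2 to 51.01 CPM in mutants. The kinase gene *unc-51*, which starts autophagosome formation, had a log2 fold change of -1.02 (adjusted p = 0.109). None of the 21 subunit genes of the vacuolar ATPase, the proton pump that acidifies lysosomes, passed, and their log2 fold changes lay between -0.17 and 0.35 with a median of 0.02. The 6 acid lipase genes tested all had negative log2 fold changes (median -1.46, none past the threshold), and 4 had an unadjusted p under 0.05. Over all 13482 genes tested, 7533 were negative and 1341 were lower with an unadjusted p under 0.05. *lipl-1* was at 1.76, 5.54 and 4.35 CPM in wildtype and at 0.307, 0.317, 1.404 and 0.573 CPM in mutants (log2 fold change -2.50, adjusted p = 0.109). *lipl-3* gave -2.13 (adjusted p = 0.129). The summed lipase level ranged from 74.2 to 359.0 CPM in wildtype and from 90.1 to 182.6 CPM in mutants, so the sums overlapped.

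In a list of 16 regulators, *hlh-30* and genes that work with or beside it, *mdl-1* and *pqm-1* were lower beside *hlh-30* itself. That is 3 of 16 where 0.601% of all genes were lower. The count includes *hlh-30*, whose fall was fixed by the genotype and says nothing of the other regulators. The list median was -0.55, and -0.31 without wildtype replicate 4. *mdl-1* encodes a MAD-like helix-loop-helix factor that pairs with MXL-1. It was at 25.6, 24.98 and 43.5 CPM in wildtype and at 9.28, 4.38, 4.91 and 5.98 CPM in mutants, a log2 fold change of -2.34 (SE 0.32, adjusted p = 0.0143). *pqm-1*, a zinc-finger factor that is regulated by insulin-like signalling, was at 47.3, 55.8 and 73.2 CPM in wildtype and at 26.1, 25.95, 29.96 and 25.6 CPM in mutants (log2 fold change -1.11, SE 0.17, adjusted p = 0.0256), and lost its call without wildtype replicate 3 or mutant replicate 1, 2 or 4. *daf-16*, the FOXO gene, was not past the threshold (log2 fold change -0.41, adjusted p = 0.228), nor was the insulin receptor gene *daf-2* (-1.12, adjusted p = 0.167). None of the 13 genes of the insulin/IGF-1 signalling list passed.

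Lists of genes known as readouts of insulin-like signalling, or of metals and sugars, held several of the lower genes. Of 19 commonly used DAF-16 targets, 3 were lower (median -0.45), and of 18 genes of trehalose, glycerol and metals, 3 were lower (median -0.42), with *ftn-1* and *mtl-1* in both lists. Over all genes tested, 0.601% were lower. The DAF-16 list was not split by the direction of control, and held 15 negative and 4 positive genes. Among those not past the threshold were *dod-17* (0.78), *dod-24* (0.63) and *sod-3* (-0.06). *ftn-1*, a ferritin gene that stores iron, was at 11.97, 7.28 and 15.9 CPM in wildtype and at 1.30, 1.59, 1.71 and 2.099 CPM in mutants (log2 fold change -2.79, SE 0.31, adjusted p = 0.00583). The metallothionein gene *mtl-1* was at 13.5, 29.9 and 17.7 CPM in wildtype and at 2.99, 4.89, 6.01 and 5.53 CPM in mutants (log2 fold change -2.05, SE 0.32, adjusted p = 0.0269). The paralogs *ftn-2* and *mtl-2* were not past the threshold, at -0.45 and -0.36. *icl-1*, the isocitrate lyase and malate synthase of the glyoxylate cycle, was at 188.0, 268.1 and 349.9 CPM in wildtype and at 101.3, 95.7, 145.1 and 124.8 CPM in mutants (log2 fold change -1.19, SE 0.22, adjusted p = 0.0488). *tre-5*, a trehalase gene, was at 1.55, 5.03 and 4.78 CPM in wildtype and at most 0.509 CPM in mutants (log2 fold change -3.55, SE 0.58, adjusted p = 0.0314). *icl-1*, *mtl-1* and *tre-5* lost their call in 4 or more of the 7 fits without a library.

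Fat synthesis gave a single lower gene among 22 (0.601% over all genes), with a list median of -0.38 (-0.14 without wildtype replicate 4). Of the 22, 18 had negative log2 fold changes. At an unadjusted p under 0.05, 9 of the 22 were lower and 0 higher, where 1341 of 13482 were lower over all genes. *fat-5*, the desaturase that acts on palmitate, was at 187.5, 200.3 and 188.4 CPM in wildtype and at 51.1, 76.6, 59.9 and 112.1 CPM in mutants (log2 fold change -1.345, SE 0.24, adjusted p = 0.0422). The call was lost without wildtype replicate 2 or 3, or without mutant replicate 1, 2 or 3. All 7 *fat* genes tested had negative log2 fold changes (7533 of 13482 over all genes), with a median of -0.74. *fat-7* and *fat-6*, the desaturases that act on stearate, were at -0.88 (adjusted p = 0.109) and -0.74 (adjusted p = 0.228). *acs-17*, an acyl-CoA synthetase gene, was lower by a log2 fold change of -1.61 (SE 0.28, adjusted p = 0.0422), and passed in 2 of the 7 fits without a library. No gene of 39 in fat breakdown and none of the 6 yolk protein genes passed, with medians of -0.21 and -0.58 (the latter -0.31 without wildtype replicate 4).

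**Figure D3:**
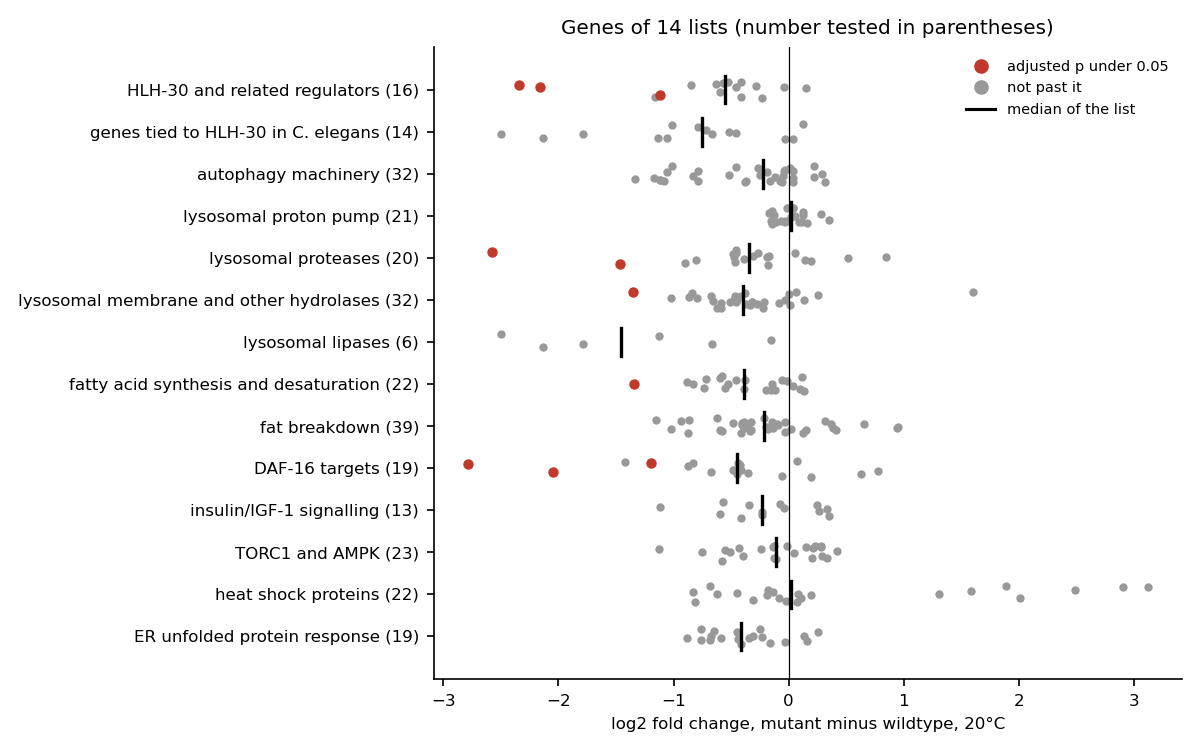
Log2 fold change (mutant minus wildtype, 20°C) of every gene tested in 14 lists, with 1 point per gene. Red points have an adjusted p under 0.05, grey points do not, and the black bar is the median of the list. Lysosomal proton pump genes lie between -0.17 and 0.35, and the 6 lipase genes have a median of -1.46 with none past the threshold.

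Of 83 FLP, NLP and insulin-like peptide genes, 3 were lower and 1 was higher (median 0.02), where 0.734% of all genes passed in either direction. *ins-19*, an insulin-like peptide gene, was at 6.90, 6.85 and 7.28 CPM in wildtype and at 0.996, 0.698, 1.45 and 0.70 CPM in mutants, with little spread in wildtype (log2 fold change -2.83, SE 0.30, adjusted p = 0.00495). *nlp-28*, of a group of antimicrobial peptides of the epidermis, was at 28.3, 30.6 and 33.2 CPM in wildtype and at 8.13, 9.01, 14.5 and 9.54 CPM in mutants (log2 fold change -1.56, SE 0.21, adjusted p = 0.014), and its call was lost without wildtype replicate 3 or mutant replicate 1, 2 or 4. *nlp-51* fell from 2.26 CPM or more to 0.508 CPM or less (log2 fold change -3.26, adjusted p = 0.0154). *nlp-24* was the peptide gene that rose, from 26.3, 19.6 and 18.1 CPM to 54.9, 47.6, 41.9 and 54.5 CPM (log2 fold change 1.24, SE 0.19, adjusted p = 0.0253). None of 95 C-type lectin genes and none of 11 lysozyme genes passed. *lys-4*, a lysozyme gene, was at 810.2 to 1189 CPM in wildtype and 348.7 to 585.5 CPM in mutants, with a log2 fold change of -0.95 (adjusted p = 0.092). Of 111 cytochrome P450, UGT and FMO genes tested, *cyp-32B1* (-2.51) was lower and *ugt-64* (0.83) higher. Of 33 glutathione transferase genes tested, *gsto-3* (-1.28) was lower. Over all genes, 0.734% passed in either direction. *cyp-32B1*, *ugt-64* and *gsto-3* each passed in at most 2 of the 7 fits without a library. Heat shock protein genes (0 of 22, median 0.02), the unfolded protein response lists of the ER (0 of 19) and of mitochondria (0 of 13), ribosomal proteins (0 of 78), the proteasome (0 of 33) and nuclear-encoded respiratory chain genes (0 of 49) gave no call. The heat shock list was split, with 11 genes positive and 11 negative. Its *hsp-16* entries and *hsp-70* had log2 fold changes of 1.31 to 3.12 (smallest adjusted p of the list 0.235). At an unadjusted p under 0.05, 4 of the list were higher and 5 lower. The ER list had 16 of 19 genes negative, with a median of -0.42 (-0.22 without wildtype replicate 4). Of these 19, 9 were lower and 0 higher at an unadjusted p under 0.05. Over all 13482 genes tested, 1341 were lower at that level.

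Several lower genes came from small families, which were looked at after the values were seen. Of the 12 *nspc* genes tested, which encode short nematode-specific peptides, 5 were lower (0.601% over all genes), and all 12 had negative log2 fold changes with a median of -2.75. None of the 5 passed in more than 3 of the 7 fits without a library. *nspc-20* was at 3.31, 8.52 and 3.35 CPM in wildtype and at 0.307, 0.952, 0.789 and 0.954 CPM in mutants, and *nspc-14* at 4.44, 10.9 and 4.07 CPM against 0.46, 1.02, 1.14 and 1.02 CPM. Wildtype replicate 3 was the highest for these genes, and it was also the library with the highest summed level of sperm genes, whose part in this was not tested. *nspc-16*, *nspc-17*, *nspc-18* and *nspc-20* lie in a row on chromosome X between 14523575 and 14530214, and reads of such similar genes may be split uncertainly between them. The *pud* genes, named for proteins more abundant in *daf-2* mutants, were all 6 negative (median -2.91) and 3 were called lower (0.601% over all genes). *pud-1.2* was at 7.39, 14.7 and 10.7 CPM in wildtype and at 1.38, 1.33, 0.351 and 1.27 CPM in mutants (log2 fold change -3.34, SE 0.45, adjusted p = 0.0138), and it passed in 3 of the 7 fits without a library. A pair of neighbouring genes that share the symbol *pud-2.2* (WBGene00017500 and WBGene00017490) gave log2 fold changes of -3.32 and -2.99 and passed in 3 and 4 of those fits, and counts of these near-identical copies are uncertain. Of the 3 CBP/p300 homologs, *cbp-2* and *cbp-3* were lower (-1.38 and -1.24), where 0.601% of all genes were. The longer-known *cbp-1* was not past the threshold (-0.58, adjusted p = 0.336).

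The 3 genes with the largest rise were *grd-13*, *grd-14* and *F53F1.4*, an uncharacterized gene. *F53F1.4* was at 7.75, 5.24 and 4.49 CPM in wildtype and at 23.3, 25.3, 19.6 and 30.7 CPM in mutants, with every mutant library above wildtype (log2 fold change 2.098, SE 0.26, adjusted p = 0.00917). Other uncharacterized genes that rose were *D1086.3* (1.71), *Y47G6A.19* (1.58), *C16C8.20* (1.19), *F55H12.4* (1.11) and *T13F3.6* (1.01). The 18 higher genes also held members of the *grd* and collagen families, which were looked at after the values were seen. The *grd* genes encode secreted Groundhog proteins, which in worms are made largely by epithelia. Of 6 *grd* genes tested, 5 were higher (0.134% over all genes) and all 6 were positive, with a median log2 fold change of 1.46. *grd-14* was at 1.76, 1.31 and 1.21 CPM in wildtype and at 5.06, 7.17, 8.64 and 9.99 CPM in mutants (log2 fold change 2.44, SE 0.31, adjusted p = 0.0104). *grd-3* was at 43.2, 43.0 and 32.9 CPM in wildtype and at 67.8, 76.0, 69.7 and 88.4 CPM in mutants (log2 fold change 0.94, SE 0.16, adjusted p = 0.0332). *grd-13* (2.82), *grd-4* (1.51) and *grd-5* (1.07) were the others. Apart from *grd-14*, each *grd* gene passed in at most 2 of the 7 fits without a library. In the related *grl* and *wrt* families, none of 6 and none of 5 genes passed. Of 75 cuticle collagens tested, 3 rose (0.134% over all genes), and 47 of the 75 were positive with a median of 0.14. Over all genes tested, 5910 of 13482 were positive. *col-98* was at 91.8, 58.2 and 51.6 CPM in wildtype and at 187.8, 188.7, 214.3 and 259.9 CPM in mutants (log2 fold change 1.68, SE 0.22, adjusted p = 0.0122). *col-42* rose by 1.54 (adjusted p = 0.0104) and *col-103* by 1.405 (adjusted p = 0.0186). *dpy-6*, which encodes a mucin-like protein needed for body shape, rose from 1.13, 1.38 and 1.14 CPM to 3.14, 4.12, 4.30 and 2.86 CPM (log2 fold change 1.58, adjusted p = 0.0466), and lost its call whichever library was left out. *mpst-7*, a mercaptopyruvate sulfurtransferase gene, rose by 1.80 (adjusted p = 0.0436). The summed level of 9 epidermal markers was 308.7 to 479.1 CPM in wildtype and 450.9 to 671.0 CPM in mutants, which overlap. Of the 7 epidermal markers tested, 3 had positive and 4 negative log2 fold changes (median -0.07). The part of the summed level in these results was not tested. Without wildtype replicate 3, none of the 18 higher genes passed the threshold.

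The same genotypes after 3 h at 37°C were measured in other libraries, none of which enters the comparison at 20°C. There, 0.764% of the genes tested passed the threshold, with 85 genes lower (0.63%) and 18 higher (0.134%) in mutants. Of the 81 genes lower at 20°C, 46 were also lower at 37°C (56.8%), which is 54.1% of the 85. The 81 genes had a median log2 fold change of -1.49 at 37°C, and 75 were negative, as were 51.8% of all genes. Of the 18 higher genes, all were positive at 37°C (median 1.38) and 2, *ugt-64* and *D1086.3*, passed the test. *tts-1* was at 837.1, 972.5, 372.2 and 723.8 CPM in wildtype at 37°C and at 2.65, 3.01, 0.839 and 3.24 CPM in mutants (log2 fold change -8.20, SE 0.45, adjusted p = 3.03e-05). *adh-1* gave -5.50 and *spp-2* -4.30, both past the threshold. *dct-7*, named as a DAF-16-controlled gene, gave -2.98 at 20°C and -5.52 at 37°C. *swt-1*, of the SWEET family of sugar transporters, gave -2.15 at 20°C and -3.34 at 37°C.

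Other genes had smaller values at 37°C. *cpr-1* was at 45.6 to 108.1 CPM in wildtype and 13.5 to 35.2 CPM in mutants after heat, both far under their levels at 20°C, and its log2 fold change was -1.55 (adjusted p = 0.057). *cpr-4* gave -0.60 (adjusted p = 0.21), *pqm-1* 0.04 (adjusted p = 0.936) and *gad-3* 0.30 (adjusted p = 0.399). The 3 *pud* genes that fell at 20°C had positive log2 fold changes at 37°C, none past the threshold. *pud-1.2* was at 3.76, 0.0773, 0.666 and 0.161 CPM in wildtype at 37°C and at 0.123, 1.42, 5.71 and 1.91 CPM in mutants, so the groups overlapped (log2 fold change 1.14, SE 1.14, adjusted p = 0.638). Whether the genotype difference itself differed between 20°C and 37°C was tested as an interaction in 1 model of the 4 groups. It passed the adjusted threshold for no gene in edgeR and for 1 in DESeq2. Over all genes tested, 524 had an unadjusted p under 0.05 in edgeR, 24 of the 99 among them. The 99 were chosen by their difference at 20°C, which is itself part of the interaction. The choice thus favours low interaction p-values, and the 24 are no evidence that the difference depends on temperature. *gad-3* had the smallest unadjusted interaction p of the 99 (8.15e-05, adjusted p = 0.62).

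**Figure D4:**
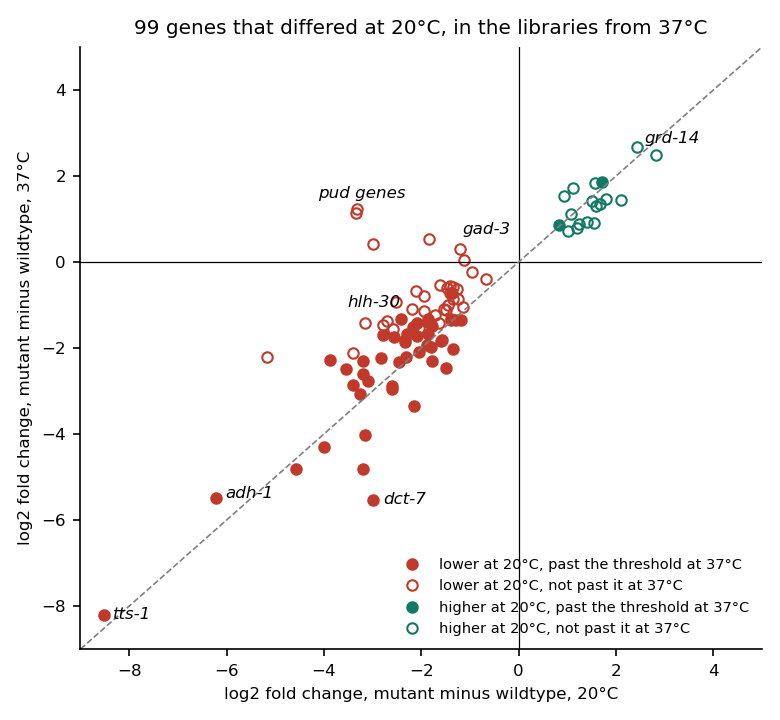
Log2 fold change (mutant minus wildtype) at 20°C on the horizontal axis and at 37°C on the vertical axis for the 99 genes that passed the test at 20°C, with 1 point per gene. Filled points also passed at 37°C (48 genes), and the dashed line marks equal values. The 3 *pud* genes lie above 0 at 37°C, and *tts-1* lies at -8.53 and -8.20.

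Rescued animals at 20°C are set beside the other genotypes here. Over the 81 lower genes, the median of the mean level was 18.7 CPM in wildtype, 3.39 CPM in mutants and 5.83 CPM in rescued animals. Over the 18 higher genes it was 15.5, 40.7 and 65.9 CPM. The set of rescued and mutant libraries shares the mutant libraries with the comparison above, and 23.1% of all genes differed between rescued animals and mutants (10.1% higher and 13.1% lower in rescued animals), so the values stand side by side only. *hlh-30* itself was at 61.2, 77.3, 57.4 and 117.1 CPM in rescued animals, transgene reads included. *tts-1* was at 16.3, 1.605, 0.867 and 0.879 CPM, with replicate 1 apart from the other 3 and all far under wildtype. *adh-1* was at 2.02, 0.892, 0.667 and 1.19 CPM, all above the mutant libraries and far under wildtype. *spp-2* was at 11.9, 9.39, 10.0 and 23.6 CPM, a log2 fold change over mutants of 1.51 (SE 0.30, adjusted p = 0.00494). *T26H5.9* was at 5.24, 4.101, 4.34 and 5.21 CPM, under the wildtype range of 7.43 to 12.3 CPM and over the mutant range of 0.825 to 1.01 CPM.

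*F08B12.4*, an uncharacterized gene, was at 153.6, 125.9 and 133.9 CPM in wildtype, at 48.9 to 53.2 CPM in mutants and at 113.5, 88.4, 96.2 and 108.7 CPM in rescued animals. *W08A12.2*, chosen because its rescued libraries overlapped wildtype, was at 27.2 to 31.2 CPM in wildtype, 10.3 to 16.3 CPM in mutants and 26.6 to 29.8 CPM in rescued animals, the last 2 ranges being apart. *pud-2.2* (WBGene00017500) was at 2.72, 23.4, 16.7 and 10.5 CPM in rescued animals, which spread over most of the range between mutants and wildtype. *cpr-1* was at 269.2, 138.4, 112.2 and 316.3 CPM, overlapping the mutants (log2 fold change -0.12, adjusted p = 0.844).

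Some genes were farther from wildtype in rescued animals than in mutants. Over the higher genes this held for the median level given above (65.9 CPM in rescued animals, 40.7 CPM in mutants). Named examples came from both directions. *ins-19* was at 0, 0.0594, 0.20 and 0.126 CPM, under every mutant library (log2 fold change -3.31, SE 0.59, adjusted p = 0.00268). *fat-5* was at 24.6, 18.7, 18.5 and 36.9 CPM, also under every mutant library (-1.67, SE 0.29, adjusted p = 0.00225). *grd-3* was at 152.6, 141.8, 125.7 and 142.4 CPM and *col-98* at 493.9, 415.4, 365.0 and 482.6 CPM, above every mutant library. Epidermal markers summed to 679.2 to 802.7 CPM in rescued animals and pan-neuronal markers to 420.5 to 527.9 CPM, against 285.7 to 327.9 CPM for the pan-neuronal sum in mutants and 355.7 to 411.5 CPM in wildtype. *rab-3*, 1 of the pan-neuronal genes, whose promoter and 3′UTR are in the transgene, was at 45.7 to 71.85 CPM in rescued animals and at 4.31 to 6.67 CPM in mutants. The part of these in the rescued values was not tested.

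**Figure D5:**
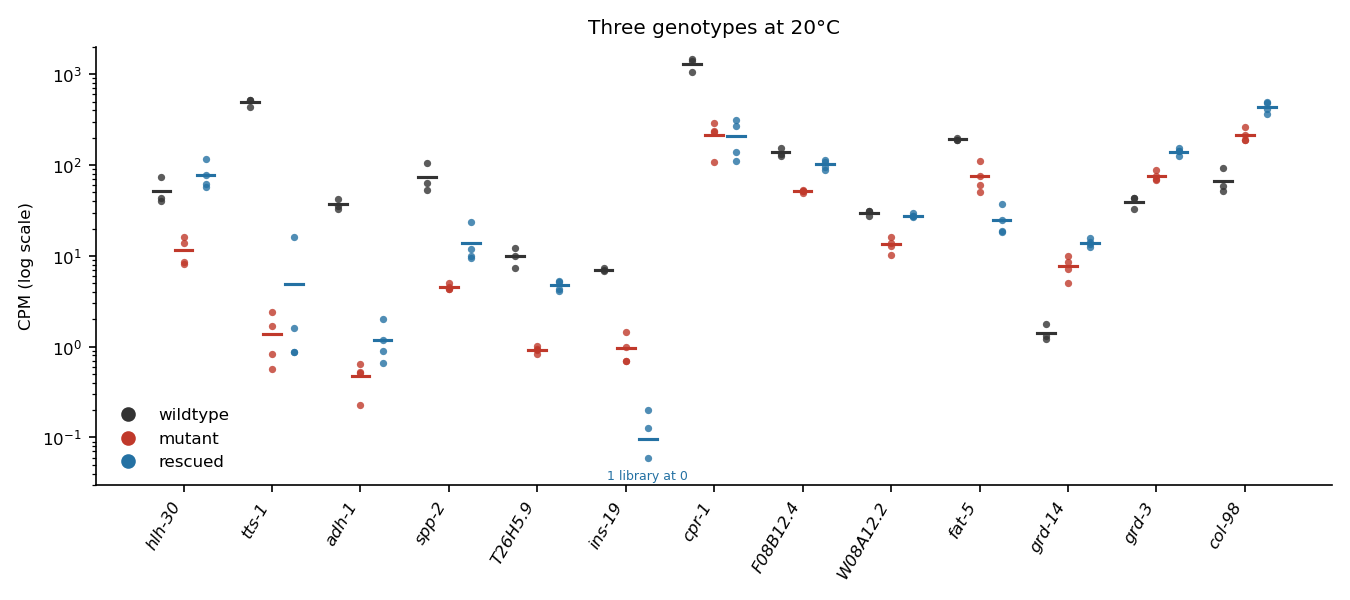
CPM (log scale) of 13 genes at 20°C in wildtype (black, 3 libraries), *hlh-30(tm1978)* mutants (red, 4 libraries) and rescued animals (blue, 4 libraries), with 1 point per library and a bar at the mean. *W08A12.2* in rescued animals (26.6 to 29.8 CPM) overlaps the wildtype range (27.2 to 31.2 CPM), while *tts-1* and *adh-1* stay near the mutants and *ins-19* lies below them, with 1 library at 0.

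The 99 genes were spread over all chromosomes except the mitochondrial genome. Chromosome V held 35 of 2554 genes tested (1.37%) and chromosome X 23 of 1894 (1.21%), against 0.368% to 0.541% on chromosomes I to IV. Within 1000000 bases of *hlh-30* on chromosome IV, 5 of 241 other genes tested passed (2.07%), and elsewhere on the chromosome 6 of 1976 did (0.304%). This window was chosen after the positions were seen. The 5 genes were *dct-7*, *F15E6.3*, *grd-3*, *grd-13* and *Y17G9A.4*, at 262 to 832 kb from *hlh-30*. They are not 5 separate loci, since *grd-13* and *grd-3* lie 152 bases apart and *dct-7* and *F15E6.3* 4174 bases apart. *F15E6.3* was at 17.04, 17.3 and 21.8 CPM in wildtype and at 2.53, 1.90, 5.18 and 5.34 CPM in mutants. Differences between the strains around the tm1978 allele other than the deletion cannot be told apart from the loss of *hlh-30*, since 1 mutant strain was used. Of the 99 genes, of which 81 were lower, 10 adjacent pairs lay within 10 kb of each other, and the members of each pair had the same direction, such as *grd-14* with *grd-4* (208 bases apart) and *cbp-3* with *cbp-2* (7291 bases apart).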

How the data were processed

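Total RNA of whole young adults was sequenced as paired-end libraries. The authors deposited raw counts of reads per gene, made by trimming with Trimmomatic, mapping to WBcel235 with STAR and counting with featureCounts of Subread, with no normalization. Tool versions are those of the study's methods, and the strand setting is not given in the sources used here. Positions are those of the deposited tables, and gene symbols come from Ensembl release 115, which holds 46581 of the 46756 gene identifiers.

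From these counts, 23 of 24 libraries were used, because 1 file was a copy of another. Depth was 11207383 to 28091186 counted reads per library, and shares and CPM of genes with few reads carry counting error. The 13482 genes whose mean count over the 23 libraries reached 10 were tested with edgeR 4.0.16 (R 4.3.3), with TMM scaling and the quasi-likelihood test on the 7 libraries of the comparison. P-values were adjusted by Benjamini-Hochberg over all genes, with a threshold of 0.05. The 8 libraries at 37°C, and the rescued and mutant libraries, were fitted in the same way, and the interaction in 1 model. Log2 CPM used a prior count of 2. Code was tested on simulated data.

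Named genes were *hlh-30*, *W06A11.1*, the 15 largest falls and rises past the threshold whose mean count reached 50 and whose groups did not overlap, and up to 4 called members of each of 40 lists (2 by smallest p where none passed). Members, lists and tests were chosen with earlier results of these data known. Gene families, neighbours and genes outside this rule, such as *linc-84*, *cbp-2*, *F08B12.4*, *W08A12.2*, *gad-3* and *F15E6.3*, were chosen after their values were seen. Alternatives were DESeq2 1.42.0, other scalings, other filters, a stricter threshold, 1 fit of all libraries, the replicate number as a block, each library left out in turn and, added after seeing the data, a covariate for oocyte genes. Sequences of the genes are not shown here.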

Additional observations from a re-analysis of the deposited data

Results flagged for a closer look

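In 8 of 154 gene-by-group sets of 4 mutant libraries at 20°C, a single library stood apart from the other 3. Chance gives about 1 in 20, so the count is near the chance rate, and the genes are listed as values only. Mutant replicate 3 was the lowest for *pud-1.2*, at 0.351 CPM against 1.27 to 1.38 CPM, and for *pud-2.2* (WBGene00017500), at 0.439 CPM against 2.22 to 2.54 CPM. It was the highest for *C06B3.6* (34.7 CPM against 11.99 to 15.4 CPM), *cup-16* (8.07 CPM against 5.85 to 6.03 CPM) and *pqm-1* (29.96 CPM against 25.6 to 26.1 CPM). These 5 genes passed the test against wildtype. Replicate 3 was also the deepest mutant library, and the part of depth was not tested.

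Genes that did not pass the test were set apart in other libraries. *hsp-70*, a heat-inducible chaperone gene, was at 16.4 CPM in mutant replicate 1 and at 1.52 to 2.41 CPM in the others (log2 fold change 2.90, adjusted p = 0.235). The adult collagen *col-19* was at 649 CPM in mutant replicate 4 and at 425 to 462 CPM in the others. *fis-2*, a mitochondrial fission gene, was at 43.4 CPM in mutant replicate 2 and at 36.6 to 36.9 CPM in the others.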

How the results depend on the processing

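The numbers of higher and lower genes at 20°C, 18 and 81 as reported, were 110 and 316 in DESeq2, 30 and 151 with no filter, 87 and 323 in 1 fit of all libraries, 94 and 316 with the oocyte covariate chosen after seeing the data, and 1 and 22 at an adjusted p under 0.01. Leaving out 1 library gave 1 to 23 higher and 24 to 165 lower genes. All 99 genes were also called by DESeq2, and 14 under every setting tried other than the added ones. At 37°C, the 18 and 85 became 264 and 387 in DESeq2, 123 and 543 with no filter, 279 and 256 in 1 fit of all libraries, 4 and 45 at 0.01, and 5 to 58 and 48 to 140 without 1 library. Rescued animals against mutants gave 1359 higher and 1762 lower genes, 580 and 1136 at 0.01, and 867 to 1208 and 1278 to 2422 without 1 library. The interaction, with no gene, gave 1 in DESeq2 and 2 with no filter, and 0 to 0 without 1 library. *hlh-30* lay between -2.34 and -1.82 without 1 library. Of 725 values of 43 named called genes under alternatives, 551 stayed past the threshold, 174 did not and 0 changed sign. The causes of these changes were not tested. Depth limits genes under about 1 CPM, such as *W06A11.1*.

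Mutant and wildtype libraries share replicate numbers 2 to 4, which nothing ties to a shared culture. With the replicate number as a block in those pairs, 0 genes were higher and 18 lower at 20°C, 2008 genes had an unadjusted p under 0.05, and *hlh-30* was at -2.02 (adjusted p = 0.0543). At 37°C the block gave 21 higher and 114 lower genes. Correlations of the deviations of same-numbered libraries at 20°C were 0.327, -0.136 and 0.363, and wildtype replicate 2 correlated best with mutant replicate 1 (0.512).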

Other observations

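Summed levels of sperm and neuronal genes are given here as values, since no gene of either list passed the test. Of 36 sperm genes, 35 had negative log2 fold changes (median -3.23, and -3.83 without wildtype replicate 4). An unadjusted p under 0.05 was found for 30, with none past the adjusted threshold. Over all 13482 genes tested, 7533 were negative and 1341 were lower with an unadjusted p under 0.05. Their summed level was 66.8, 180.4 and 9.99 CPM in wildtype replicates 2, 3 and 4 and 6.75 to 17.3 CPM in mutants, which overlap through wildtype replicate 4. In rescued animals it was 75.4 to 122.3 CPM. At 37°C it was 31.9 to 236.7 CPM in wildtype and 12.39 to 39.7 CPM in mutants, which also overlap. The summed level of 20 pan-neuronal genes was 355.7 to 411.5 CPM in wildtype and 285.7 to 327.9 CPM in mutants at 20°C, with no overlap, and 302.8 to 315.6 CPM against 266.8 to 283.8 CPM at 37°C. Of the 19 tested, 10 were positive and 9 negative (median log2 fold change 0.06). The F-box family had a median log2 fold change of -0.71 over 215 genes with 1 called, and a median of 0.07 without wildtype replicate 4.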
